A study of Mus musculus with 2 samples.

Results

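The genes described here are 10 components of type 2 immunity: the cytokine genes Il13, Il4 and Il5, the alarmin genes Il25, Il33 and Tslp, and the receptor genes Il1rl1, Il17rb, Il4ra and Il13ra1. They were chosen by name, and each of the 10 symbols was found among the 27275 genes of the table. RNA came from the proximal small intestine of naive mice of 2 genotypes, with 1 library each. The KO library has the genotype Spibfl/flVillin-Cre, in which Cre under the villin promoter, active in gut epithelium, removes floxed Spib, an ETS family transcription factor gene. The WT library is labelled Spib+Villin-Cre, so its label names the Cre transgene too. The sources used here do not state age, sex, strain or the number of mice behind a library.

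Type 2 immunity is the response with which the gut meets worms and some protists. Tuft cells and other barrier cells release the alarmins interleukin-25 (IL-25), IL-33 and TSLP. These act on group 2 innate lymphoid cells (ILC2) and T helper 2 (Th2) cells, which answer with IL-4, IL-5 and IL-13. In the small intestine IL-13 acts back on the epithelium, where it favours tuft and goblet cells, and IL-5 sustains eosinophils.

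Receptor genes and Il33 were well covered in both libraries, while Il13, Il4, Il5, Il25 and Tslp rested on few reads. Values are FPKM, reads scaled to the exon length of a gene and to the size of the library, which allows levels of different genes to be compared. The number of reads behind a value was recovered from the values themselves, with denominators of 17658566 reads for KO and 17425640 for WT. Of the 10 genes, 5 had fewer than 50 reads in both libraries together. Without replicates no test of genotype was possible. The 95% intervals given are exact Clopper-Pearson intervals for folds and exact Poisson intervals for levels, and they cover counting error only. The labels name no molecular identifiers, so PCR copies can make even the counting error larger than these intervals show. In whole tissue, fewer cells of a type and less RNA per cell cannot be told apart.

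Spib was lower in the library labelled KO. It had 0.592 FPKM in KO, from 30 reads, and 4.94 FPKM in WT, from 247 reads, which is 8.34-fold lower in KO. B cell markers were lower in the same library, with sums of 8.97 FPKM in KO and 24.1 FPKM in WT. Their part in the Spib value was not tested. Markers of enterocytes were abundant in both libraries, with Fabp2, a fatty acid binding protein, at 4103 FPKM in KO and 5325 FPKM in WT, followed by Apoa1 and Krt20. Over the 13479 genes with at least 1 FPKM in at least 1 library, the median log2 ratio of KO to WT, with 1 FPKM added to each value, was -0.049. Of these genes, 1.61% were at least 2-fold higher in KO by that ratio and 2.51% at least 2-fold lower.

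By the same measure, Il1rl1 was at least 2-fold higher in KO and none of the 10 genes was 2-fold lower. The comparison held 7 of the genes, since Il13, Il5 and Il25 were below 1 FPKM in both libraries. Il4 and Tslp passed the filter only through their KO values, so the 7 are not a neutral sample of the 10. The ratio with 1 FPKM added understates differences of low genes. Plain folds, without it, were at least 2 in favour of KO for 5 of the 8 genes with at least 10 reads in total, Il13, Il4, Tslp, Il17rb and Il1rl1. Il13 reached 10 reads only through KO, with 11 reads there and 0 in WT, so it could only come out higher. The rule of plain folds was added after seeing the data. In the whole table, 3.78% of genes with at least 10 reads met that rule and 6.14% met it in the opposite direction. The share depends on the reads behind a gene, as the plot of fold by reads shows. It was 12.5% of genes with 10 to under 50 reads, where Il13, Il4 and Tslp lie, 2.12% of those with 50 to under 500 reads, where Il17rb lies, and 0.899% of those with 500 reads or more, where Il1rl1 lies. The counting interval of the fold lay wholly above 1 for those same 5 genes and wholly below 1 for Il4ra. In the whole table it lay above 1 for 14.4% and below 1 for 23.7% of genes with at least 10 reads.

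**Figure D1:**
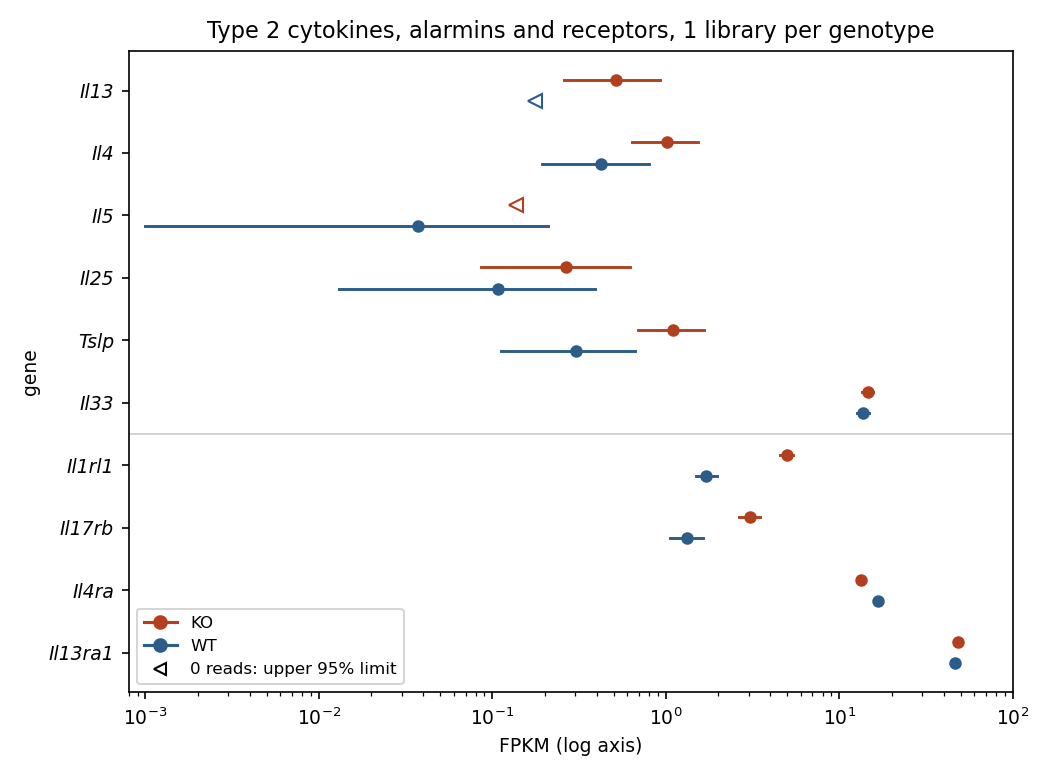
FPKM of the 10 genes on a log axis in the KO library (upper point of each row) and the WT library (lower point), with exact 95% Poisson intervals as lines. Open triangles mark genes with 0 reads at the upper limit of that interval. FPKM was higher in KO for Il13, Il4, Il25, Tslp, Il1rl1 and Il17rb, lower for Il4ra and Il5, and close for Il33 and Il13ra1. The intervals of Il33, Il13ra1, Il4, Il25 and Il5 overlap between libraries. Those of the low cytokines are wide, and those of Tslp rest on reads recovered with a length of 1133 bases.

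The cytokines come first. Il13, Il4 and Il5 lie in a cluster on chromosome 11. Il13, which encodes the main type 2 cytokine acting on gut epithelium (minus strand, 53631324 to 53634702 in mm10), had 0.517 FPKM in KO, from 11 reads (0.258 to 0.925 FPKM), and 0 reads in WT (upper limit 0.176 FPKM). Against a floor of 3 reads in the WT library, 0.143 FPKM, the KO value was 3.62-fold higher. That is no lower bound, since the exact interval of the fold begins at 2.48. Il13 was thus detected in KO and not in WT at this depth.

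Il4, the cytokine of Th2 differentiation and IgE switching (minus strand, 53602982 to 53618669), had 1.02 FPKM in KO, from 22 reads, and 0.421 FPKM in WT, from 9 reads. It was 2.41-fold higher in KO, with a counting interval of 1.07 to 5.95 that begins just above 1. The log2 ratio with 1 FPKM added was 0.50. Il5, the growth factor of eosinophils (plus strand, 53720794 to 53725106), had 0 reads in KO and 1 read in WT, both under the floor, so no fold is given. Its exons share 417 bases with those of an opposite-strand gene, Gm12214. Read sums for Il4, Il5 and Il13 together came to 33 in KO and 10 in WT.

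Neighbouring genes at the cytokine cluster were close between the libraries. Rad50, a DNA repair gene that lies between Il13 and Il5 and holds control elements of the cluster, had 587 reads in each library, 6.18 FPKM in KO and 6.27 FPKM in WT. The kinesin motor gene Kif3a had 2.80 FPKM in KO and 2.53 FPKM in WT. Irf1, an interferon-regulated transcription factor on the far side of Il5, was lower, at 29.9 FPKM in KO and 39.5 FPKM in WT, a 1.32-fold difference (1.25 to 1.401). None of these 3 reached 2-fold.

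Of the other cytokines tied to type 2 responses, Areg and Csf2 were measured. Areg, the epidermal growth factor relative amphiregulin that ILC2 can secrete, had 4.99 FPKM in KO from 107 reads and 4.16 FPKM in WT from 88 reads, with a fold of 1.20 and an interval of 0.897 to 1.61 that spans 1. Csf2, which encodes the growth factor GM-CSF, had 0 reads in KO and 2 reads in WT. Il9, Il3 and Il31 are not analysed here.

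Among the alarmins, Il33 was abundant and Il25 and Tslp were scarce. Il33, a nuclear cytokine set free by damaged barrier and stromal cells (plus strand of chromosome 19, 29925114 to 29960718), had 14.6 FPKM in KO, from 743 reads, and 13.7 FPKM in WT, from 688 reads. The fold was 1.07, and the counting interval of 0.959 to 1.18 spans 1. Markers of fibroblasts, which express Il33 in the gut wall, were as close: none of 8 was past 2-fold, their FPKM summed to 163 in KO and 161 in WT, and none was at 0. Col3a1, Dcn and Col1a1, genes of the extracellular matrix, were the most abundant of them. Endothelial markers summed to 26.8 FPKM in KO and 25.3 FPKM in WT, with none of 5 past 2-fold and Lyve1, Pecam1 and Cdh5 the most abundant.

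Tslp, an epithelial and stromal alarmin (plus strand of chromosome 18, 32815383 to 32819797), had 1.10 FPKM in KO and 0.304 FPKM in WT. Its values did not step in whole reads with the annotated exon length of 1331 bases, but did so with a length of 1133 bases, which gives 22 reads in KO and 6 reads in WT. On those reads the fold was 3.62, with an interval of 1.42 to 10.9. The smallest whole numbers with that ratio, 11 and 3, would leave the fold as it is with an interval of 0.956 to 20.2, which spans 1.

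Il25, the tuft cell alarmin of the IL-17 family (plus strand of chromosome 14, 54932695 to 54935837), had 0.266 FPKM in KO, from 5 reads, and 0.108 FPKM in WT, from 2 reads. The ratio was 2.47 with an interval of 0.404 to 25.9, so no difference was detectable at this depth. Tuft cells, its known source in the small intestine, were represented by 16 markers. Of the 14 compared, 9 were at least 2-fold higher and none lower, beside 1.61% higher over all compared genes. Gnat3, Sucnr1, Alox5 and Pou2f3 passed the filter of 1 FPKM only through their KO values, so the compared markers are not a neutral sample. The same holds for Chat and Alox5ap, which were also compared and are named after their values were seen. By plain level 15 of the 16 were higher in KO. Ltc4s, named after its values were seen, was lower, with 4 reads in KO and 8 reads in WT. The 9 were Rgs13, Sh2d6, Trpm5, Avil, Dclk1, Sucnr1, Gnat3, Alox5 and Pou2f3, with Rgs13, a regulator of G protein signalling, the most abundant at 23.0 FPKM in KO and 3.36 FPKM in WT. Ptgs1, a cyclooxygenase gene, came after Rgs13 and Sh2d6 in level, at 9.45 FPKM in KO and 7.88 FPKM in WT. Their FPKM summed to 89.5 in KO and 25.8 in WT, and none was at 0. Their part in the Il25 and Il17rb values was not tested.

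**Figure D2:**
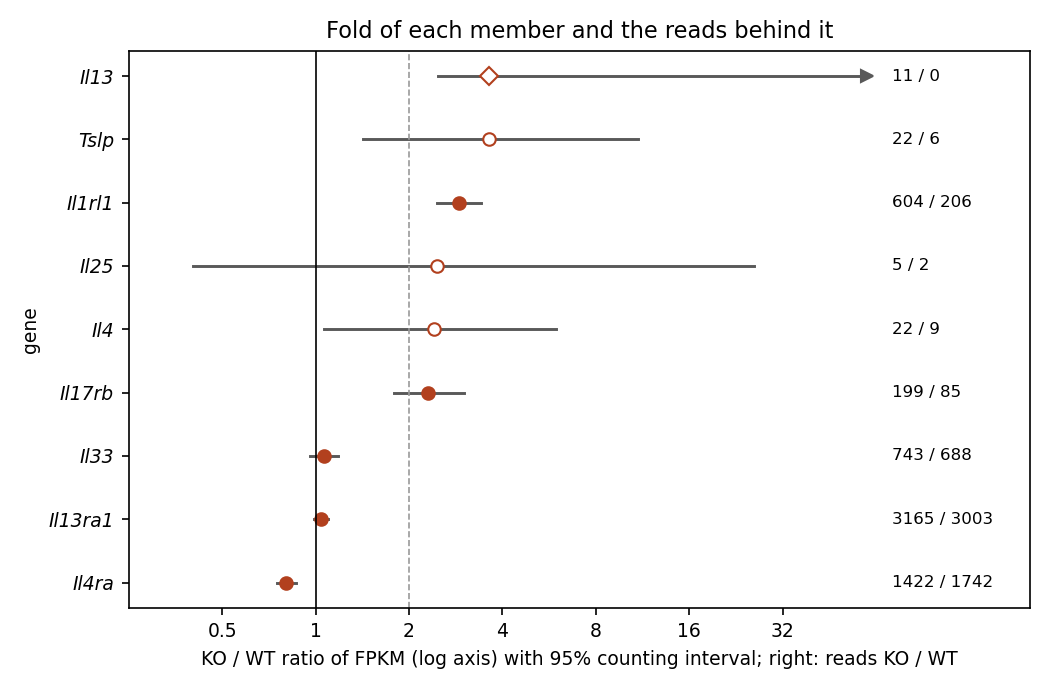
Plain KO over WT ratio of FPKM on a log axis for 9 genes, with exact 95% counting intervals and the read numbers (KO / WT) at the right. Open symbols have fewer than 50 reads in total, the diamond of Il13 is its fold against a floor of 3 reads and its interval has no upper end. Il5, with 1 read in all, is left out. The interval of Il4 begins at 1.07 and that of Il25 spans 1.

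Il1rl1 differed most among the receptors. It encodes ST2, the IL-33 receptor of mast cells, ILC2 and Th2 cells (plus strand of chromosome 1, 40429570 to 40465415), made as a membrane form and, by alternative transcript ends, as a soluble decoy. It had 4.96 FPKM in KO, from 604 reads (4.57 to 5.37 FPKM), and 1.71 FPKM in WT, from 206 reads (1.49 to 1.97 FPKM). The fold was 2.89, with a counting interval of 2.47 to 3.41, and the log2 ratio 1.13. Only 165 of the 13479 compared genes, or 1.22%, had a higher log2 ratio. Deposited values are sums over all exons, so membrane and soluble forms could not be separated.

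The other genes of the interleukin-1 receptor cluster, which share this stretch of chromosome 1 with Il1rl1, lay within 2-fold. Il1r1, the signalling receptor for IL-1, had 3.35 FPKM in KO and 3.31 FPKM in WT, and its decoy relative Il1r2 had 0.890 FPKM in KO and 1.11 FPKM in WT. The IL-36 receptor gene Il1rl2 had 1.06 FPKM in KO and 1.24 FPKM in WT. Il18r1, next to Il1rl1 and coding for the IL-18 receptor, had 1.399 FPKM in KO and 1.01 FPKM in WT, a fold of 1.38 (1.04 to 1.85). Its partner Il18rap had 0.377 FPKM in KO and 0.578 FPKM in WT. No interval of these 5 genes reaches the 2.47 at which that of Il1rl1 begins.

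Il1rl1, Il13 and Il4 differed in the direction of KO and have a start region that holds one of the motifs searched, and these regions are shown as the 250 bases before each annotated transcription start, read from RefSeq's GRCm38.p6 promoter table, the same assembly as mm10, 5′ to 3′ on the strand of the gene. The table held 11 start regions for 8 of the 10 genes, with 2 starts each for Il1rl1, Il4 and Il33. The second Il4 region and the single region of Il17rb, which also differed in the direction of KO, held none of the motifs and are not shown. Capitals mark matches on either strand to AGATAA, a form of the motif bound by GATA factors, or to TTC and GAA with 4 bases between them, the motif of STAT6. The motifs do not overlap in the sequences shown.
Il1rl1 upstream start, chr1:40429320-40429569, plus strand: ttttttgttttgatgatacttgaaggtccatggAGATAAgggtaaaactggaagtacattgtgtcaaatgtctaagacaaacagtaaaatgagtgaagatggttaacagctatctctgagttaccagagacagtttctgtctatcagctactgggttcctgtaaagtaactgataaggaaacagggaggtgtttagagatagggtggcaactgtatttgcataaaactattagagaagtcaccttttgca
Il1rl1 downstream start, chr1:40439379-40439628, plus strand: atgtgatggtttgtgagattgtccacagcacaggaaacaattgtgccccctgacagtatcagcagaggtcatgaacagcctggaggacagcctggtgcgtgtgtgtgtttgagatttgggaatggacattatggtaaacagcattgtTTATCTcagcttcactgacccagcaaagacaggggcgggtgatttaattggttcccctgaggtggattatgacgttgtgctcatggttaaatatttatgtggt
Il13, chr11:53634703-53634952, minus strand: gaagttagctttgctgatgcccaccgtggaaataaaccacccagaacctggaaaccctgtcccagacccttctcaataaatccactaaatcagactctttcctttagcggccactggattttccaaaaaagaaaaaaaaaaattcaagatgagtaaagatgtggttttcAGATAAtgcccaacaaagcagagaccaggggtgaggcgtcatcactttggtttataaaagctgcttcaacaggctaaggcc
Il4 upstream start, chr11:53618666-53618915, minus strand: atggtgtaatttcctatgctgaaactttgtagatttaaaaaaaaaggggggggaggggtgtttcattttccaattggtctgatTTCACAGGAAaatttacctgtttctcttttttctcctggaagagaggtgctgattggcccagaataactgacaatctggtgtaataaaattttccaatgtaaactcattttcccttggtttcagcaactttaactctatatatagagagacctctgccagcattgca

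The GATA letters begin 217 bases before the upstream Il1rl1 start, 103 bases before the downstream one and 81 bases before that of Il13. They were in 3 of the 11 start regions and in 9.99% of the 32851 regions of the table. The STAT6 letters begin 167 bases before the upstream Il4 start, are also in 1 of the Il33 regions, 36 bases before its start, and were in 5.85% of all regions. The letters GAGGAAGT, bound by SPI-B and its relative PU.1, were in none of the 11 and in 2.44% of all regions. These matches describe the sequence only.

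Il17rb was higher in KO as well. It encodes the IL-25 receptor subunit that gives ligand specificity, carried by ILC2 and by tuft cells themselves (minus strand of chromosome 14, 29996135 to 30008896). It had 3.04 FPKM in KO, from 199 reads (2.63 to 3.49 FPKM), and 1.32 FPKM in WT, from 85 reads (1.05 to 1.63 FPKM). The plain fold was 2.31, with a counting interval of 1.78 to 3.01. The log2 ratio of 0.80, which includes the added 1 FPKM, did not reach 2-fold, and 2.203% of compared genes had a higher one. Its exons share 141 bases with those of Actr8, a chromatin remodelling gene on the opposite strand, which had 2.90 FPKM in KO and 2.55 FPKM in WT, 1.14-fold higher. Without known strand, reads in the shared bases could not be told apart.

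The receptor genes for IL-4 and IL-13 were the most abundant receptor genes among the 10, and their folds lay near 1. Il4ra, the chain shared by both receptors (plus strand of chromosome 7, 125552120 to 125579474), had 13.4 FPKM in KO, from 1422 reads, and 16.7 FPKM in WT, from 1742 reads. It was 1.24-fold lower in KO, with an interval of 1.16 to 1.33. Intervals wholly on the lower side were common, in 32.4% of genes with 500 reads or more. An opposite-strand gene, Gm44876, shares 571 exon bases with Il4ra. Il13ra1, the chain that pairs with it in the receptor of epithelial and other non-lymphoid cells (plus strand of chromosome X, 36112110 to 36171259), had 48.3 FPKM in KO, from 3165 reads, and 46.4 FPKM in WT, from 3003 reads, with a fold of 1.04 (0.989 to 1.09). Per length, Il13ra1 exceeded Il4ra 3.60-fold in KO and 2.79-fold in WT.

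**Figure D3:**
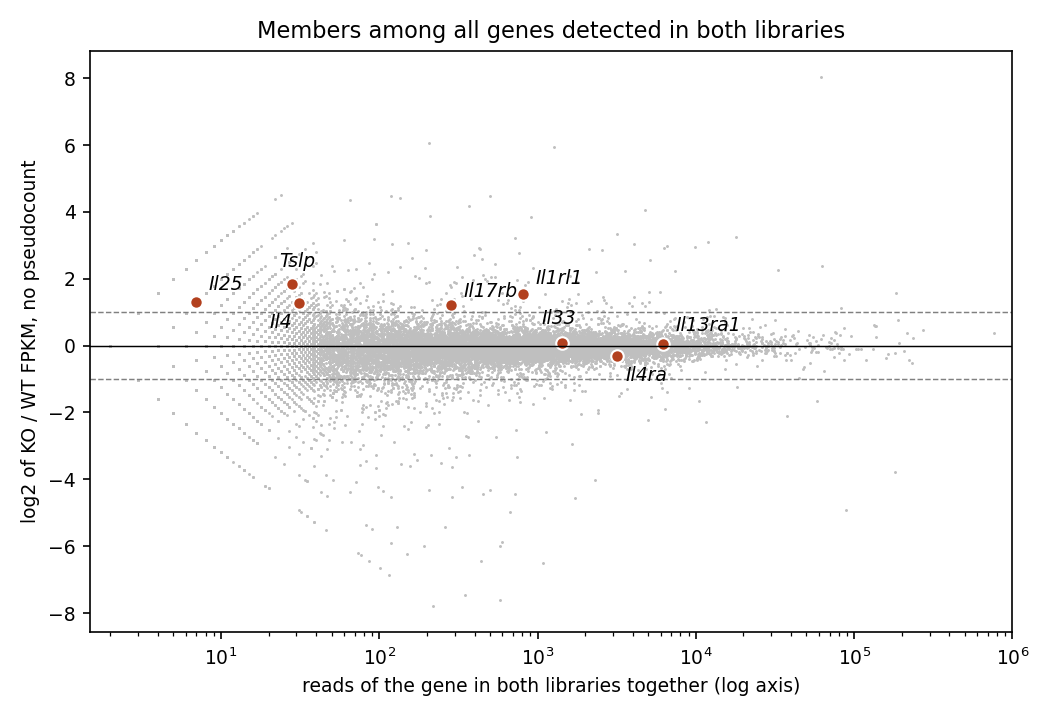
Log2 of the plain KO over WT ratio against the reads of a gene in both libraries together (log axis), for all genes detected in both libraries whose reads could be recovered (grey) and 8 of the 10 genes (coloured, named). Dashed lines mark 2-fold. Il1rl1 and Il17rb lie at the upper edge of the genes with like read numbers, while Il25, Il4 and Tslp lie where the grey points fan out. Il13 and Il5 have 0 reads in one library and cannot be drawn.

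The order of levels was nearly the same in both libraries. In KO it ran from Il13ra1 through Il33, Il4ra, Il1rl1, Il17rb, Tslp, Il4, Il13 and Il25 to Il5. Neighbours whose counting intervals overlapped there were Il33 and Il4ra, and each pair from Tslp down to Il5. In WT the order began with Il13ra1, Il4ra, Il33, Il1rl1 and Il17rb and went on with Il4, Tslp, Il25, Il5 and Il13. There Il1rl1 and Il17rb overlapped, as did each pair from Il4 downwards. Il33 exceeded its receptor Il1rl1 by 2.94-fold in KO and by 7.98-fold in WT, per length.

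The partner chains of these receptors differed in both directions. Of 10 partner genes, 5 had a higher and 5 a lower level in KO, with the counting interval of the fold wholly above 1 for 3 and wholly below 1 for 5. By the log2 ratio 6 were compared, with a median of -0.33, and none was past 2-fold in either direction. The 4 left out by the filter were all on the higher side, and the median was -0.078 with them included. Il1rap, the signalling chain of the IL-33 receptor, had 0.798 FPKM in KO from 160 reads and 0.652 FPKM in WT from 129 reads, with a fold of 1.22 (0.965 to 1.56). The Il1rl1 to Il1rap ratio was 6.22 in KO and 2.63 in WT. Il17ra, the shared chain of the IL-25 receptor, had 2.45 FPKM in KO and 2.91 FPKM in WT, 1.19-fold lower (1.03 to 1.37). The Il17rb to Il17ra ratio was therefore above 1 in KO, at 1.24, and below 1 in WT, at 0.452.

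Il2rg, Crlf2 and Il7r were lower in KO. Il2rg, the common gamma chain of the type I IL-4 receptor, had 0.854 FPKM in KO from 36 reads and 1.73 FPKM in WT from 72 reads, 2.03-fold lower by plain fold (1.34 to 3.11). Crlf2, the TSLP-binding chain, had 3.90 FPKM in KO and 5.76 FPKM in WT, 1.48-fold lower (1.14 to 1.92). Il7r, which pairs with Crlf2 and also marks lymphocytes, had 1.91 FPKM in KO and 2.84 FPKM in WT, 1.49-fold lower (1.16 to 1.92). T cell markers were lower in the same library, and all 10 had fewer FPKM in KO. By the log2 ratio 1 of the 8 compared, the T cell receptor gene Trac, passed 2-fold. Plain KO to WT ratios of the 10 ran from 0.278 to 0.553. Their counting interval of the fold lay wholly below 1 for all 10, beside 23.7% of genes with at least 10 reads. Cd8a, Trac and Cd4 were the most abundant T cell markers. The 10 summed to 9.08 FPKM in KO and 21.6 FPKM in WT, with none at 0. Their part in the Il2rg and Il7r values was not tested.

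The IL-5 receptor, the IL-9 receptor and the IL-13 decoy rested on fewer reads. Il5ra, the IL-5 binding chain of eosinophils and some B cells, had 0.348 FPKM in KO from 22 reads and 0.128 FPKM in WT from 8 reads, with a fold of 2.71 (1.16 to 7.05). Csf2rb and Csf2rb2, near copies that can share reads, code for the signalling chains of the IL-5, IL-3 and GM-CSF receptors and summed to 3.60 FPKM in KO and 4.24 FPKM in WT. Singly, Csf2rb had 2.58 FPKM in KO and 3.25 FPKM in WT, and Csf2rb2 had 1.02 FPKM in KO and 0.983 FPKM in WT. Il9r, the IL-9 receptor of mast cells and ILC2, had 0.538 FPKM in KO from 47 reads and 0.302 FPKM in WT from 26 reads, with a fold of 1.78 (1.08 to 3.001). Il13ra2, the high-affinity decoy that is itself induced by IL-13, had 10 reads in KO, 0.248 FPKM, and 0 reads in WT. Against the floor of 3 reads it was 3.29-fold higher, while the exact interval begins lower, at 2.21.

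**Figure D4:**
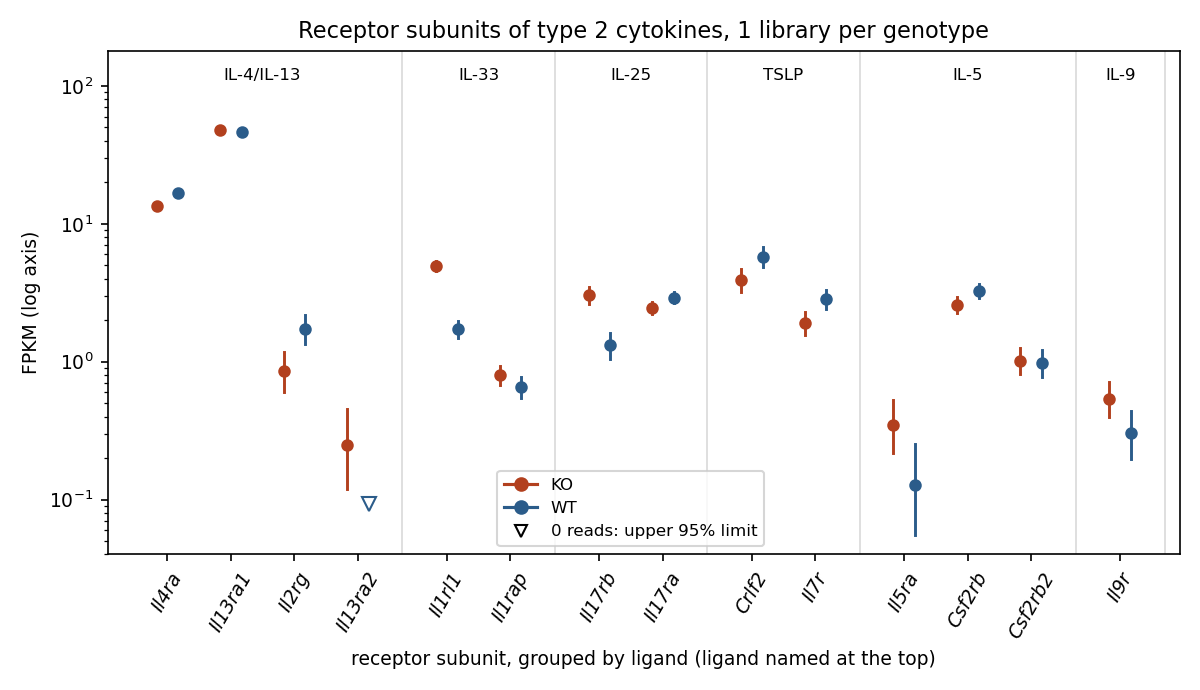
FPKM on a log axis of the receptor subunits for each type 2 ligand (named at the top), with the KO library as the left point and the WT library as the right point of each gene and exact 95% Poisson intervals. The open triangle marks 0 reads at its upper limit. Il1rl1 and Il17rb are higher in KO while their partners Il1rap and Il17ra lie close between libraries, and Il2rg, Crlf2 and Il7r are lower in KO.

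Of 17 signal transducer genes below these receptors, 16 were compared, with a median log2 ratio of -0.20, and none of the 16 was past 2-fold by that ratio. The kinase genes Jak1 and Jak2 and the transcription factor gene Stat6, which carries the IL-4 and IL-13 signal, were the most abundant. Stat6 had 35.5 FPKM in KO and 32.1 FPKM in WT, a fold of 1.11 (1.05 to 1.17), Jak1 had 24.2 FPKM in KO and 23.8 FPKM in WT, and Jak2 had 54.2 FPKM in KO and 45.1 FPKM in WT. Chosen after their values were seen, Jak3, the kinase bound to the common gamma chain, had 1.95 FPKM in KO and 4.55 FPKM in WT, which is 2.34-fold lower by plain fold (1.96 to 2.79). Gata3, the master factor of Th2 cells and ILC2, which was below 1 FPKM in both libraries, had 6 reads in KO and 21 reads in WT. Gata3 was 3.55-fold lower by plain fold (1.38 to 10.7), opposite in direction to Il4 and Il13.

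Of the genes that IL-4 and IL-13 are known to induce, several were higher in KO. This list was chosen with the values of several of its genes known, so its direction is not independent of them. Of 16 genes measured, 13 were compared, 7 were at least 2-fold higher and none lower, beside 1.61% higher over all compared genes. Of the 7, 5 are Gsdmc and Sprr2a copies of 2 gene families that can share reads, so they are not 5 separate measurements. The median log2 ratio was 1.30, against -0.049 for all compared genes, and it moved with the settings, to 0.85 without the filter, 0.62 with 5 FPKM added and 2.23 among genes of at least 5 FPKM. The goblet cell gene Clca1, a secreted protease of mucus, had 2059 FPKM in KO and 696 FPKM in WT. The eosinophil chemokine gene Ccl24 had 4.07 FPKM in KO from 93 reads and 0.886 FPKM in WT from 20 reads, 4.59-fold higher (2.81 to 7.86). Ccl24 passed the filter only through its KO value, as did Alox15 and Retnla. Gsdmc2, Gsdmc3 and Gsdmc4, related gasdermin genes that can share reads, summed to 742 FPKM in KO and 85.2 FPKM in WT. Sprr2a1, Sprr2a2 and Sprr2a3, near copies that code for small proline-rich barrier proteins, summed to 130 FPKM in KO and 22.1 FPKM in WT.

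The 6 other compared genes of the list lay within 2-fold by the log2 ratio. Retnlb, Retnla, Mrc1 and Arg1 are named after their values were seen. Retnlb, which encodes a goblet cell protein active against worms, had 4.89 FPKM in KO from 60 reads and 2.31 FPKM in WT from 28 reads, with a plain fold of 2.11 (1.33 to 3.44). Retnla had 10 reads in KO and 3 reads in WT, with a plain fold of 3.29 whose interval of 0.847 to 18.6 spans 1. The macrophage genes Mrc1 and Arg1 were close, but Arg1 was below 1 FPKM in both libraries and is not among the 6. Mrc1 had 3.71 FPKM in KO and 3.53 FPKM in WT, and Arg1 had 14 reads in KO and 13 reads in WT. The interval of the fold spans 1 for both, at 0.912 to 1.21 for Mrc1 and 0.463 to 2.46 for Arg1. Macrophage markers summed to 132 FPKM in KO and 168 FPKM in WT, with none at 0 and Mertk, C1qa and C1qb the most abundant. None of 9 was past 2-fold by the log2 ratio. By plain level 7 were lower in KO and 2 higher. The counting interval of the fold lay wholly below 1 for 7 and wholly above 1 for none. Cd68, named after its values were seen, was 2.04-fold lower by plain fold (1.53 to 2.75).

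Markers of the cells that carry ST2 gave a mixed picture. Of 11 mast cell markers measured, 3 were compared and 2 were at least 2-fold higher, beside 1.61% higher over all compared genes. The 2 were Mcpt1 and Mcpt2, proteases of mucosal mast cells whose copies can share reads, with 13.2 FPKM in KO and 2.85 FPKM in WT together. Kit, the stem cell factor receptor, which pacemaker cells of gut muscle also express, had 7.90 FPKM in KO and 4.44 FPKM in WT. The whole list summed to 23.2 FPKM in KO and 8.34 FPKM in WT, with 1 gene at 0 in KO and 2 at 0 in WT. Fcer1a, the IgE receptor chain and named after its values were seen, was one of those at 0 in WT and had 14 reads in KO. By plain level 9 of the 11 were higher in KO and 2 lower. The counting interval of the fold lay wholly above 1 for 4 mast cell markers and wholly below 1 for none. Named after their values were seen too, Hdc had a fold of 1.07 (0.584 to 1.98) and Gata2 of 1.08 (0.649 to 1.80). Tpsb2, named likewise, had 3 reads in KO and 4 reads in WT. Of 12 ILC2 and Th2 markers, 4 were compared and none passed 2-fold, with sums of 8.24 FPKM in KO and 9.51 FPKM in WT and none at 0. By plain level 9 of the 12 were lower in KO and 3 higher, with the counting interval of the fold wholly below 1 for 4 genes and wholly above 1 for 2. Il2ra, an IL-2 receptor chain, was 2.45-fold lower (1.41 to 4.43) and Ccr4, a chemokine receptor of Th2 cells, 3.27-fold lower (1.505 to 7.84), both named after their values were seen. Gata3, given above, is on this list too. Nmur1, the neuromedin receptor of ILC2, had 51 reads in KO and 26 reads in WT, with a fold of 1.94 (1.18 to 3.23), and Thy1, a surface protein of T cells and innate lymphocytes, had 112 reads in KO and 161 reads in WT, 1.46-fold lower (1.14 to 1.87). Hpgds, a prostaglandin synthase gene that tuft cells express too, had 1.54 FPKM in KO and 1.27 FPKM in WT, with a fold of 1.22 (0.969 to 1.53).

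Eosinophil markers, which bear on Il5 and Il5ra, held 1 gene at least 2-fold higher among 4 compared of 7 measured, beside 1.61% higher over all compared genes. That gene was Siglecf, a lectin that tuft cells express too, with 7.75 FPKM in KO and 1.30 FPKM in WT. The list summed to 12.4 FPKM in KO and 4.47 FPKM in WT, with none at 0, and the other 6 genes, a sum added after seeing the data, to 4.67 FPKM in KO and 3.18 FPKM in WT. Ear2, an eosinophil ribonuclease gene, had 21 reads in KO and 9 reads in WT, and the lipoxygenase gene Alox15 had 55 reads in KO and 33 reads in WT. Prg2, a granule protein gene of eosinophils named after its values were seen, lay on the other side, with 7 reads in KO and 16 reads in WT. Ear2 and Alox15 passed the filter of 1 FPKM only through their KO values, and Prg2 only through its WT value. B cell markers were lower, with sums of 8.97 FPKM in KO and 24.1 FPKM in WT and none at 0. By the log2 ratio 2 of 5 were at least 2-fold lower, the antigen receptor chains Cd79a and Cd79b. Plain KO to WT ratios of the 5 ran from 0.343 to 0.389, and the counting interval lay wholly below 1 for all 5. The part of these cell types in the values of the 10 genes was not tested.

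Cytokines and receptors of type 1 and type 3 immunity, the responses to intracellular microbes and to extracellular bacteria, showed no compared gene past 2-fold. The type 1 list had 6 of 11 measured genes compared, with a median log2 ratio of 0.08, and the type 3 list had 5 of 11 compared, with a median of 0.04. With the genes left out by the filter, 4 type 1 genes were higher in KO and 7 lower. Their counting interval of the fold lay wholly above 1 for 3 and wholly below 1 for 6. In the type 3 list 4 were higher and 6 lower, with 2 such intervals above 1 and 4 below. The epithelial cytokine Il18 had 34.9 FPKM in KO and 54.8 FPKM in WT, 1.57-fold lower (1.42 to 1.74). The interferon gamma receptor chains Ifngr1 and Ifngr2 had 68.1 and 71.96 FPKM in KO, against 73.1 and 52.0 FPKM in WT. The IL-17 receptor chain Il17rc had 50.9 FPKM in KO and 59.3 FPKM in WT, the IL-22 receptor chain Il22ra1 had 41.6 FPKM in KO and 37.9 FPKM in WT, and Il10rb, a chain shared by the IL-22 and IL-10 receptors, had 14.4 FPKM in KO and 11.4 FPKM in WT. Il18 rested on 1621 reads in total. Il15, named after its values were seen, had 10.7 FPKM in KO from 429 reads and 8.43 FPKM in WT from 332 reads. Its fold was 1.28 (1.10 to 1.48), on the higher side. Several other cytokines of these arms rested on few reads. Named after their values were seen, Il22 had 0 reads in KO and 8 reads in WT, and Il23a had 0 reads in KO and 6 reads in WT, so that both were on the lower side while Il13 and Il4 were on the higher side. Whether the arms differ was not tested, for want of replicates.

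**Figure D5:**
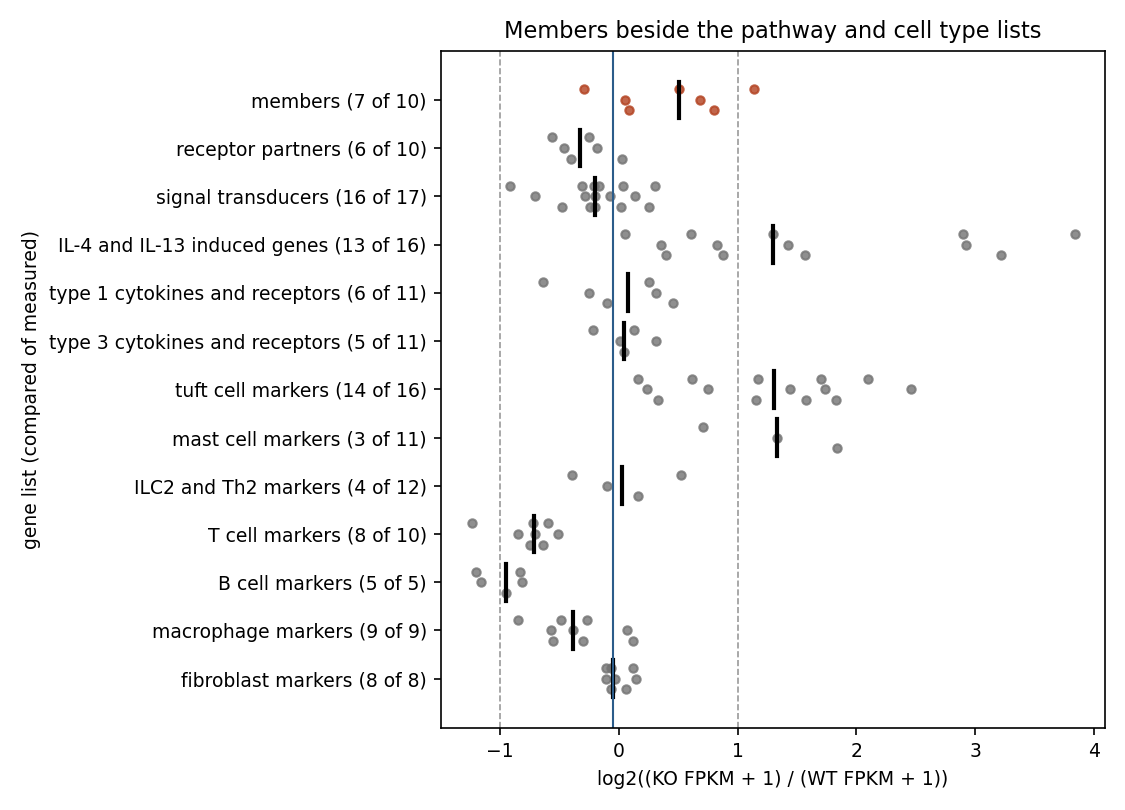
Log2 ratio of KO to WT, with 1 FPKM added to each value, for every compared gene of each list (points), with the median of the list (black bar) and of all compared genes (blue line, -0.049). The label gives compared and measured genes, and dashed lines mark 2-fold. The 7 compared genes described here run from -0.29 for Il4ra to 1.13 for Il1rl1, while the tuft cell markers reach 2.46 and the highest T cell marker lies at -0.51.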

How the data were processed

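RNA of small intestine was sequenced in 1 KO and 1 WT library, from cDNA amplified by SMART-SeqII, per the labels' protocols. The deposited table holds FPKM, made by the authors from reads, gene length and library size. The submitters' processing notes name Bowtie2 2.2.3, HTSeq 0.6.0 and mm10, with no role or order. Strand, annotation release and filters are not stated there, so overlapping genes and near copies are uncertain.

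Reads were recovered as FPKM times the exon length in GENCODE M21 (GRCm38, as mm10), which stepped in whole numbers within 0.01 for 90.7% of values above 0 in KO and 90.6% in WT. Where it did not, the smallest whole pair with a whole length was used. The script was tested on simulated data. Genes of at least 1 FPKM in 1 library were compared by log2 ratio with a pseudocount of 1. Without replicates no p-value was computed. Python 3.11.15, scipy 1.17.1 and pandas 2.3.3 were used.

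The 10 genes and the lists were chosen with earlier results of these data known. Named are the 10 genes, Spib, all measured genes of the partner, cytokine and 2 locus lists, and from each further list those past 2-fold or of the 3 highest levels. 1 gene that this rule names is not reported here. Other names are marked as chosen after their values were seen. Alternatives were other pseudocounts, filters, a median scaling and, added after seeing the data, plain folds.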

Additional observations from a re-analysis of the deposited data

How the results depend on the processing

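The number of the 10 genes at least 2-fold higher in KO, 1 with a pseudocount of 1, was 4 with 0.1 in its place, 0 with 5 in its place, 0 among genes of at least 5 FPKM, where Il1rl1 just misses the filter, and 5 by plain fold with at least 10 reads, a rule added after seeing the data. Over all genes the counts, 217 higher and 338 lower, were 355 and 575 with a pseudocount of 0.1, 61 and 122 with one of 5, 97 and 193 among genes of at least 5 FPKM, and 675 and 1096 by plain fold. On the 4 pathway lists (other cytokines, partners, transducers and induced genes) 7 genes were higher and 0 lower; a pseudocount of 0.1 gave 1 lower, and plain folds gave 11 higher and 3 lower. With the smallest whole reads, 3 of the 10 genes in place of 5 had a counting interval above 1, since Il13 and Tslp then rest on fewer reads. The median log2 ratio of the partner genes, -0.33, was -0.099 by plain fold, -0.078 without a filter and -0.15 with a pseudocount of 5. No count moved by over 1.5 times without a filter or after division by the median KO to WT ratio of 0.975. With a pseudocount of 5 the log2 ratio of Il1rl1 was 0.57 and that of Il17rb 0.35. No paired analysis was possible because there is 1 library per genotype. For the same reason no library could be left out, and no difference here can be told apart from variation between mice. Depth limits Il13, Il4, Il5, Il25 and Tslp, where a floor of 3 reads is 0.1699 FPKM in KO and 0.172 FPKM in WT for a transcript of 1 kb.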
